A study of Mus musculus with 12 samples.

Results

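The 4th day after tamoxifen was compared with the starting age in the retina of mice that lose Otx2 from photoreceptors in adulthood. The libraries were taken by their labelled age: 3 from P34 cKO mice (numbered 7 to 9) and 3 from P30 control mice (numbered 1 to 3), 6 of the 12 libraries of the series, with 1 mouse per library. The other libraries came from P32 and P38 cKO mice (4 to 6 and 10 to 12). The study's methods give 3 mice per condition, while a figure legend describes the P30 controls as analysed in duplicate. All 3 P30 libraries were used here. All mice were on a 129/SV background. The cKO mice carried a Crx-CreERT2 transgene and Otx2 flox/flox alleles and had 1 intraperitoneal injection of tamoxifen at P30, and the P30 mice, labelled as controls, were killed at day 0. CreERT2 is a Cre recombinase that tamoxifen switches on, and the Crx promoter drives it in photoreceptors. The alleles of the P30 mice are not in the labels. Age, tamoxifen and deletion therefore changed together between the groups and cannot be told apart. The RNA came from the whole retina and, by the study's account, held RNA of the retinal pigment epithelium (RPE). The question was which genes, in either direction, differed 4 d after the deletion was started.

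OTX2 is a homeodomain transcription factor that photoreceptors and bipolar cells need to form. In the adult, photoreceptors, the RPE and most bipolar cells go on making it. It binds the sequence TAATCC, which it shares with its close relative CRX. The retina borders on several other tissues that a dissection can carry along. The RPE lies against the photoreceptor outer segments and recycles retinoids. The ciliary and iris epithelia continue the RPE and retina at the front of the eye, secrete aqueous humor and make much of the vitreous and of the zonule fibers, while the lens, the iris muscle and the stroma lie next to them. Marker genes of all of these were counted beside those of the retina's own cells.

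The 6 libraries held 29701483 to 60145034 counts on genes, and 3 counts corresponded to 0.0473 to 0.102 CPM (reads of a gene as a share of the library, scaled by edgeR's TMM method). P30 mice 1, 2 and 3 had 60145034, 47255929 and 35242774 counts, and P34 mice 7, 8 and 9 had 38183235, 40737548 and 29701483. Some libraries stood apart from others of their age. P30 mouse 1 had less RNA of pigment and smooth muscle genes than P30 mice 2 and 3, P30 mouse 2 had less lens RNA and P30 mouse 3 more. The Y-linked gene Ddx3y had 0.0315, 0.101 and 0.119 CPM in the P30 mice and 96.3, 105 and 0.169 CPM in the P34 mice, so P34 mice 7 and 8 were male and the other 4 mice female. Otx2 itself (ENSMUSG00000021848, chr14:48657677-48673819, minus strand) had 293, 328 and 315 CPM in the P30 mice and 328, 331 and 377 CPM in the P34 mice (log2 fold change 0.15, SE 0.11, adjusted p 0.684). This level over the whole gene does not check the deletion, which removes a single exon. Reads on single exons were not analysed here. The study did count them, and reported fewer reads of the deleted exon, relative to a neighboring exon, at P34 than at P30.

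Of 18628 genes tested, 123 (0.66%) were lower at P34 than at P30 and 0 (0%) were higher, by edgeR's quasi-likelihood test. A gene was called when its p, adjusted by Benjamini-Hochberg over all genes tested, was 0.05 or less and its log2 fold change was at least 0.5 up or down. With an unadjusted p of at most 0.05 and the same limit on the fold, 1009 (5.42%) were lower and 159 (0.854%) higher. After TMM scaling, which centers the libraries on each other, 9346 genes had a negative and 9282 a positive log2 fold change, with a median of -0.0013. The 123 genes were of moderate abundance. Their mean at P30 ranged from 0.370 to 490 CPM with a median of 9.38, against 14.9 over all genes. Their falls were large, with a median log2 fold change of -2.65, and 89 of them fell by 2 or more on the log2 scale. All P34 mice lay below all P30 mice in 121 of the 123, which follows from how they were chosen, and in 1802 (9.67%) of all genes tested. Coding genes made up 118 of them. In bulk RNA, fewer cells of a type and less RNA per cell cannot be told apart, which holds for every gene below.

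The count of calls depended on single libraries. Without P30 mouse 2 it was 59, without P30 mouse 3 64, without P34 mouse 7 54, without P34 mouse 8 43 and without P34 mouse 9 49, while without P32 mouse 6 (in neither of the ages compared, but part of the filter, the scaling and the common estimate of the spread) it was 211. Without P30 mouse 1 it was 148. When each of the 12 libraries was left out in turn, 41 of the 123 genes were called every time, and the other 82 lost the call at least once. Where a gene named below is among those 82, the libraries are given. P30 mouse 1 was the lowest of the 3 P30 mice in 86 of the called genes, against 39.1% of all genes. DESeq2's test called 353 genes lower and 16 higher. With sex as a covariate 142 genes were called lower, 98 of the 123 among them, and of the genes named below C4b, Edn3, Emilin2, Lox, Myh11, Nid2, Npsr1, Tyrp1 and Wnt16 lost the call (adjusted p 0.0513 for Tyrp1 to 0.121 for Lox). With only the 6 libraries compared, C4b, Emilin2, Myh11, Tagln and Wnt16 lost it, and in a robust fit Acta2, Gpnmb, Myh11, Ogn, Ptgds and Tyrp1. In limma-voom all of these genes lost it, as did Bmp4, Dio3os, Gsta3, Mgst1, Mlph and Wif1.

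**Figure D1:**
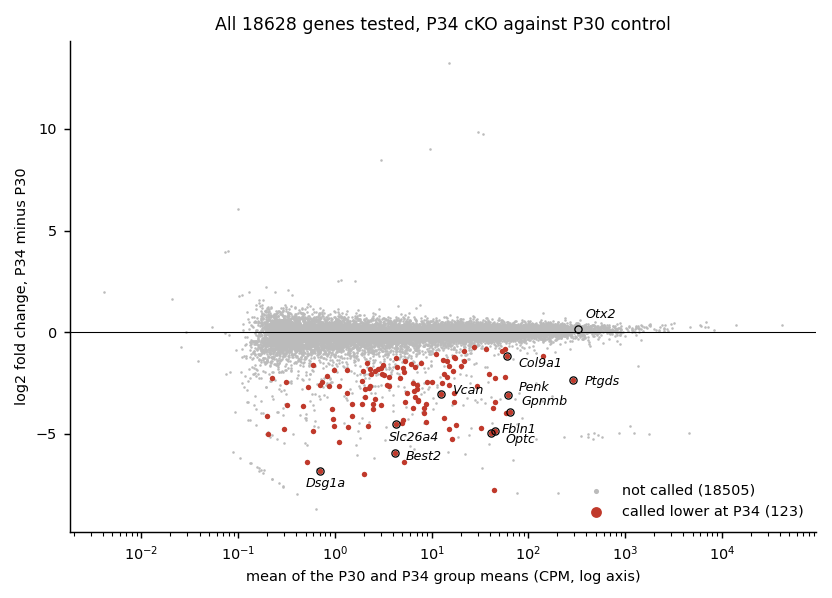
Log2 fold change between P34 and P30 (vertical axis) against the mean of the P30 and P34 group means in CPM (horizontal axis, log scale) for the 18628 genes tested, with the 123 genes called lower at P34 in red and the others in gray. The red points all lie below 0, and among the highest gray points are the Y-linked genes Uty, Eif2s3y, Ddx3y and Kdm5d (P34 mice 7 and 8 were male), whose height rests on the prior count because the P30 mice had few or 0 counts.

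The falls with the smallest p-values were in genes of the extracellular matrix and of anion transport. In what follows, values are given in the order of the mice, and parentheses give the log2 fold change, its standard error (SE) and edgeR's adjusted p over all genes. Vcan (ENSMUSG00000021614, chr13:89655312-89742509, minus strand), a large chondroitin sulfate proteoglycan that binds hyaluronan, had 17.9, 22.4 and 26.7 CPM at P30 and 2.93, 2.92 and 2.34 CPM at P34 (log2 fold change -3.03, SE 0.23, adjusted p 0.000171). Slc26a4 (ENSMUSG00000020651, chr12:31519827-31559969, minus strand), the anion exchanger pendrin, had 7.22, 8.82 and 8.44 CPM at P30 and 0.387, 0.245 and 0.440 CPM at P34 (log2 fold change -4.52, SE 0.34, adjusted p 0.000171). The P34 mice lay far below every P30 mouse in both, and the spread within each age was small. Fbln1 (ENSMUSG00000006369, chr15:85205949-85286535, plus strand), a fibulin of elastic fibers and basement membranes, had 79.4, 82.0 and 79.3 CPM at P30 and 3.73, 1.62 and 2.51 CPM at P34 (log2 fold change -4.94, SE 0.40, adjusted p 0.000265). Optc (ENSMUSG00000010311, chr1:133897199-133907999, minus strand) encodes opticin, a proteoglycan of the vitreous made by the ciliary epithelium. It had 99.0, 73.8 and 90.6 CPM at P30 and 4.06, 2.47 and 2.64 CPM at P34 (log2 fold change -4.84, SE 0.42, adjusted p 0.000423). Mfap4 (ENSMUSG00000042436, chr11:61485431-61488900, plus strand), a microfibril-associated protein, had 29.6, 38 and 28.6 CPM at P30 and 1.13, 0.637 and 0.745 CPM at P34 (log2 fold change -5.25, SE 0.47, adjusted p 0.000443). No P34 mouse exceeded 4.06 CPM in any of these 3 genes, and no P30 mouse was below 28.6. Ltbp2 (ENSMUSG00000002020, chr12:84783212-84876532, minus strand), needed for the zonule fibers that hold the lens, had 24.4, 22.5 and 29.9 CPM at P30 and 1.57, 1.18 and 1.46 CPM at P34 (log2 fold change -4.19, SE 0.38, adjusted p 0.000443). These 6 genes were called whichever of the 12 libraries was left out.

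Among the rest of the 15 genes of smallest p were transporters, junction genes and secreted proteins (Best2 and Sod3 are given with their lists). Slc13a4, a sodium and sulfate cotransporter, had 15.3, 16.0 and 15.7 CPM at P30 and 1.52, 0.539 and 0.914 CPM at P34 (log2 fold change -3.99, SE 0.37, adjusted p 0.000473). The tight junction genes Cldn19 and Cldn2 both fell. Cldn19 had 7.74, 12.7 and 9.69 CPM at P30 and 1.41, 1.25 and 1.12 CPM at P34 (log2 fold change -2.99, SE 0.28, adjusted p 0.000522), and Cldn2 had 9.38, 14.2 and 12.2 CPM at P30 and 1.35, 0.808 and 0.508 CPM at P34 (log2 fold change -3.73, SE 0.40, adjusted p 0.000988). Ltbp1, which stores latent TGF-beta in the matrix, had 20.9, 23.4 and 27.3 CPM at P30 and 4.42, 5.32 and 6.13 CPM at P34 (log2 fold change -2.17, SE 0.21, adjusted p 0.000623). F5, coagulation factor V, had 11.8, 14.2 and 20.4 CPM at P30 and 1.60, 0.759 and 1.12 CPM at P34 (log2 fold change -3.74, SE 0.38, adjusted p 0.000681). In each of these genes the P34 mice lay together, below the P30 mice. Tmprss11e, a serine protease of the cell surface, had 2.74, 2.34 and 3.33 CPM at P30 and 0.249, 0.269 and 0.203 CPM at P34 (log2 fold change -3.51, SE 0.37, adjusted p 0.000888). Dsg1a, a desmoglein of epithelial desmosomes, had 0.883, 1.29 and 2.05 CPM at P30 and at most 1 count in any P34 mouse (adjusted p 0.000681). A fold for Dsg1a would rest on the prior count, so none is given. No P34 mouse overlapped the P30 mice in any of these genes, as their choice required, and each was called whichever library was left out.

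The most abundant genes that fell included an enzyme and a junction protein. Ptgds, which makes prostaglandin D2, was the most abundant, with 334, 638 and 497 CPM at P30 and 126, 89.0 and 74.3 CPM at P34 (log2 fold change -2.35, SE 0.46, adjusted p 0.0409). Gja1, the gap junction protein connexin 43, had 70.7, 132 and 129.6 CPM at P30 and 8.37, 5.76 and 7.04 CPM at P34 (log2 fold change -3.97, SE 0.54, adjusted p 0.00456). In both, P30 mouse 1 was the lowest of the P30 mice, and every P34 mouse lay below it, as the choice of genes required. Ptgds lost its call without P30 mouse 2 or 3 or P32 mouse 5 or P34 mouse 7, 8 or 9 or P38 mouse 10 or 11 (adjusted p 0.0541 to 0.230). Gja1 lost its call without P34 mouse 8 (adjusted p 0.0515).

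**Figure D2:**
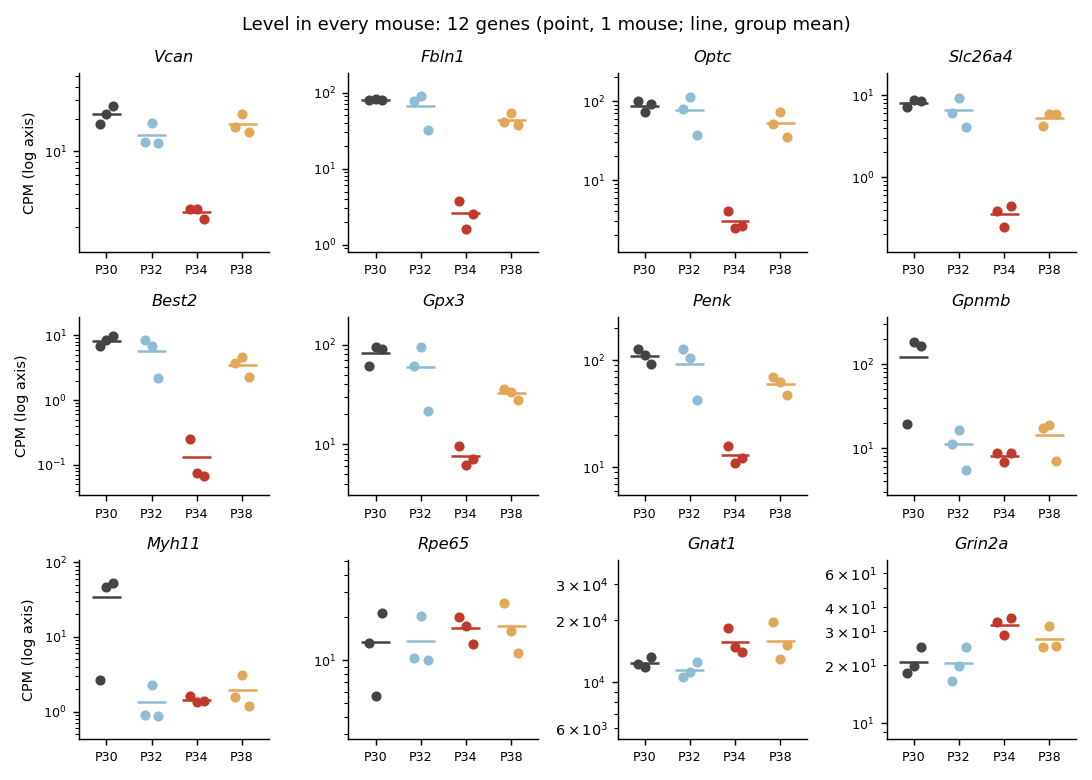
CPM (log axis) of 12 genes in each of the 12 mice at P30, P32, P34 and P38, with 1 point per mouse and a line at each group's mean. For Vcan, Fbln1, Optc, Slc26a4, Best2, Gpx3 and Penk the P34 points lie below all others, for Gpnmb and Myh11 P30 mouse 1 lies near the cKO mice, and for Rpe65, Gnat1 and Grin2a no difference passed the test.

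Since OTX2 binds TAATCC, the promoters of the genes that fell were searched for these letters, on either strand (GGATTA on the other), within 250 bases before a RefSeq start. Of 105 promoters found for 86 of the 123 genes, 7 (6.67%) held the motif, against 884 of 16127 (5.48%) promoters of all genes tested. In rod phototransduction genes, none of which was called, 8 of 13 (61.5%) promoters held it. In the other lists searched it was held by 3 of 12 (25%) promoters of RPE genes, 2 of 12 (16.7%) of outer segment and interphotoreceptor matrix genes, 2 of 14 (14.3%) of pigment genes and 0 of 9 of ciliary and iris genes. Stretches around the motif are shown for 3 called genes with large or precise falls, and for a pair of rod genes to set beside them, chosen after the values were seen. They are from RefSeq, build GRCm38.p6, read 5′ to 3′ in the direction of transcription, with TAATCC or GGATTA in capitals. The stretches lie at chr17:75178692-75178751 (plus strand) for Ltbp1, chr12:84876603-84876662 (minus strand) for Ltbp2, chr6:121300194-121300253 (plus strand) for Slc6a13, chr11:69237032-69237091 (minus strand) for Gucy2e and chr17:47400631-47400690 (minus strand) for Guca1a. The Ltbp1 stretch lies inside the gene (chr17:75005568-75392512), before an internal start, while the fold change of Ltbp1 is for the whole gene.
Ltbp1: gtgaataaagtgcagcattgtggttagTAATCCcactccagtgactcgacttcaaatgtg
Ltbp2: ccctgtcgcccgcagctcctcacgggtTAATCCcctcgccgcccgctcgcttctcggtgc
Slc6a13: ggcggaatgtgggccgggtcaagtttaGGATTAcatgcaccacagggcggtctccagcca
Gucy2e: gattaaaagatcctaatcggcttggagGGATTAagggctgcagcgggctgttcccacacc
Guca1a: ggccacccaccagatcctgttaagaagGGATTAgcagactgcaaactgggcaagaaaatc
A match of these letters is a description of the sequence, not a binding site. Ltbp2 fell by 4.19 and Ltbp1 by 2.17 on the log2 scale, and Slc6a13, a GABA and taurine transporter, had 24.6, 28.7 and 24.6 CPM at P30 and 5.99, 3.82 and 3.05 CPM at P34 (log2 fold change -2.59, SE 0.35, adjusted p 0.00456). Slc6a13 lost its call without P34 mouse 8 (adjusted p 0.0502). Gucy2e and Guca1a, which encode a guanylate cyclase of photoreceptors and the protein that activates it, had log2 fold changes of 0.27 and 0.10 that did not pass.

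Genes of the ciliary and iris epithelium were among those called lower. Of 14 tested, 10 were called lower (0.66% of all genes tested were) and 0 higher, with a median log2 fold change of -2.21 against -0.0013 over all genes, and in 13 all P34 mice lay below all P30 mice, against 9.67% of all genes. This list, like the others, was drawn up with earlier results of these data known. Its counts therefore describe the members and are not a test of the list. Best2, the bestrophin chloride channel of the nonpigmented ciliary epithelium, had 6.73, 8.50 and 9.66 CPM at P30 and 0.249, 0.0735 and 0.0677 CPM at P34 (log2 fold change -5.95, SE 0.61, adjusted p 0.000773). The transcription factor gene Zic4 had 3.82, 5.55 and 4.46 CPM at P30 and 0.442, 0.245 and 0.542 CPM at P34 (log2 fold change -3.51, SE 0.44, adjusted p 0.00271). Mecom, a transcription factor gene, had 2.95, 4.87 and 3.63 CPM at P30 and 1.10, 1.03 and 0.609 CPM at P34 (log2 fold change -2.05, SE 0.29, adjusted p 0.00571). All 3 stayed called whichever library was left out. The 4 members that did not pass were Msx1 (at most 3 counts in any P34 mouse, adjusted p 0.210), Wfdc1 (log2 fold change -1.67, adjusted p 0.0546), Bmp7 (log2 fold change -0.63, adjusted p 0.229) and Car12, in which the ages overlapped (log2 fold change 0.16, adjusted p 0.936). The summed level of the 14 genes was 514 to 805 CPM in the P30 mice, 114 to 172 CPM in the P34 mice and 193 to 556 CPM in the P32 and P38 mice. Ptgds made up most of this sum, and without it the sum was 168 to 191 CPM at P30, 33.7 to 46.3 CPM at P34 and 83.3 to 197 CPM at P32 and P38. Without P30 mouse 2 or 3 or P34 mouse 7, 8 or 9, left out in turn, 6, 5, 5, 4 and 4 members were called.

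Of 22 genes tested for transporters, channels and junction proteins of secretory epithelia, 11 were called lower, the median log2 fold change was -1.38, and all P34 mice lay below all P30 mice in 16. The shares over all genes were 0.66% called lower and 9.67% so separated. Slc26a4, Best2, Slc13a4 and Cldn19, described above, are the members with the smallest p-values. Without P34 mouse 8 or 9, 6 and 7 members were called, and 6 to 13 were over all alternatives.

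The RPE was described by a list of genes mainly of its visual cycle and transport. Of 14 tested, 0 were called in either direction, where 0.66% of all genes were called lower and 0% higher, and the median log2 fold change was -0.10, which changed sign without P30 mouse 3 (0.14) and in limma-voom, was -0.27 without P30 mouse 2 and -0.28 with sex as a covariate. Rdh10, a retinol dehydrogenase, had 64.9, 56.2 and 69.2 CPM at P30 and 56.7, 56.9 and 59.3 CPM at P34 (log2 fold change -0.14, SE 0.12, adjusted p 0.732). Sulf1, an enzyme that edits heparan sulfate, had 73.4, 62.8 and 70.1 CPM at P30 and 69.1, 72.6 and 80.1 CPM at P34 (log2 fold change 0.10, SE 0.11, adjusted p 0.788). The ages overlapped in both. Rdh10 and Sulf1 varied less among the P30 mice than Rpe65 (5.59 to 21.5 CPM), so their levels may not follow the amount of RPE in a retina. Rpe65, the isomerase of the visual cycle and a defining gene of the RPE, was added to the description after its values were seen and had 13.2, 5.59 and 21.5 CPM at P30 and 20.2, 17.3 and 13 CPM at P34 (log2 fold change 0.33, SE 0.44, adjusted p 0.849).

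Pigment genes, which the RPE, the pigmented ciliary epithelium and uveal melanocytes all use, differed widely among the P30 mice. Of 16 tested, 5 were called lower (0.66% of all genes tested were), and the median log2 fold change was -2.79. Gpnmb, a melanosome glycoprotein, had 19.1, 184 and 164 CPM at P30 and 8.64, 6.86 and 8.80 CPM at P34 (log2 fold change -3.92, SE 0.72, adjusted p 0.0310). Tyrp1, an enzyme of melanin synthesis, had 19.7, 114 and 107 CPM at P30 and 7.81, 4.41 and 5.86 CPM at P34 (log2 fold change -3.73, SE 0.69, adjusted p 0.0316). Mlph, which links melanosomes to their motor, had 3.25, 11 and 15 CPM at P30 and 0.552, 0.367 and 0.542 CPM at P34 (log2 fold change -4.32, SE 0.65, adjusted p 0.00893). P30 mouse 1 lay between the P34 mice and the other P30 mice in each. The summed level of the list was 198 CPM in P30 mouse 1, up to 1116 CPM in the other P30 mice, 81.4 to 97.0 CPM at P34 and 68.9 to 233 CPM at P32 and P38. The median log2 fold change against P30 was -2.33 at P32 and -2.01 at P38. Gpnmb lost its call without P30 mouse 2 or 3 or P34 mouse 7, 8 or 9 or P38 mouse 10 or 11 (adjusted p 0.0539 to 0.178). Tyrp1 lost its call without P30 mouse 2 or 3 or P34 mouse 7, 8 or 9 or P38 mouse 10 or 11 (adjusted p 0.0523 to 0.183). Mlph lost its call without P34 mouse 7, 8 or 9 (adjusted p 0.0643 to 0.0828). Without P30 mouse 1, 12 members were called, and without any 1 of P30 mice 2 and 3 or P34 mice 7, 8 and 9, 1, 1, 0, 0 and 0 were. Without P38 mouse 10 or 11, 1 was, and without P32 mouse 6 or P38 mouse 12, 8 were. DESeq2's test called 13 of them and limma-voom 0.

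Lens genes also differed widely among the P30 mice. Of 16 crystallin genes tested, 0 were called (0.66% of all genes were called lower), with a median log2 fold change of -5.06, which was -3.0 without P30 mouse 3. Cryaa, a chaperone crystallin of the lens fiber, had 6541, 283 and 19736 CPM at P30 and 150.0, 406 and 302 CPM at P34 (log2 fold change -4.95, SE 1.44, adjusted p 0.237). P30 mouse 2 fell within the range of the P34 mice. The crystallins summed to 883 to 60348 CPM in the P30 mice and 408 to 1154 CPM in the P34 mice. Of 11 lens fiber genes, 0 were called, with a median log2 fold change of -5.90, or -1.92 without P30 mouse 3 and -3.57 in limma-voom. Without the filter on low counts, 16 of the crystallin genes and 8 of the lens fiber genes were called.

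Smooth muscle genes, which mark the iris muscle and arterioles, showed the same uneven P30 mice as the pigment genes. Of 10 tested, 4 were called lower (0.66% of all genes were), with a median log2 fold change of -1.14 (-1.72 without P34 mouse 9). Myh11, smooth muscle myosin, had 2.65, 46.7 and 53.2 CPM at P30 and 1.63, 1.32 and 1.39 CPM at P34 (log2 fold change -4.56, SE 0.87, adjusted p 0.0389). Acta2, smooth muscle actin, had 13.5, 77.9 and 95.2 CPM at P30 and 2.60, 1.94 and 2.51 CPM at P34 (log2 fold change -4.73, SE 0.89, adjusted p 0.0352). Tagln, an actin-binding protein of the same cells, had 2.71, 25.1 and 20.7 CPM at P30 and 1.88, 1.10 and 1.25 CPM at P34 (log2 fold change -3.51, SE 0.64, adjusted p 0.0280). P30 mouse 1 was far below P30 mice 2 and 3 in all of them. Myh11 lost its call without P30 mouse 2 or 3 or P34 mouse 7, 8 or 9 or P38 mouse 10 or 11 (adjusted p 0.0584 to 0.209). Acta2 lost its call without P30 mouse 2 or 3 or P34 mouse 7, 8 or 9 or P38 mouse 10 or 11 (adjusted p 0.0601 to 0.196). Tagln lost its call without P30 mouse 2 or 3 or P34 mouse 7, 8 or 9 or P38 mouse 10 or 11 (adjusted p 0.0540 to 0.178). Without any 1 of P30 mice 2 and 3, P34 mice 7, 8 and 9 or P38 mice 10 and 11, 0 of the 10 were called. Blood vessel genes are given beside the same background. Of 15 endothelial genes 0 were called (median log2 fold change -0.10, ranging from -0.32 without P34 mouse 7 to 0.07 without P34 mouse 8), with summed levels of 341 to 366 CPM at P30 and 349 to 425 CPM at P34, and of 9 pericyte genes 0 were called (median -0.07, ranging from -0.28 without P34 mouse 7 to 0.12 without P34 mouse 8).

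Among surface epithelium genes, 3 of 11 were called lower (0.66% of all genes were). Dsg2, a desmoglein, had 1.14, 1.92 and 2.50 CPM at P30 and 0.110, 0.122 and 0.0339 CPM at P34 (log2 fold change -4.27, SE 0.50, adjusted p 0.00175). Cldn1, a tight junction gene, had 7.48, 8.60 and 7.46 CPM at P30 and 2.76, 1.94 and 2.17 CPM at P34 (log2 fold change -1.78, SE 0.26, adjusted p 0.00662). Cldn1 lost its call without P34 mouse 8 or 9 (adjusted p 0.0526 to 0.0598). Of 13 stromal fibroblast genes, 6 were called lower (median log2 fold change -1.93). Without P34 mouse 7 or 8, 3 of the 13 were called. The part of these neighboring tissues in the falls of other genes was not tested.

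**Figure D3:**
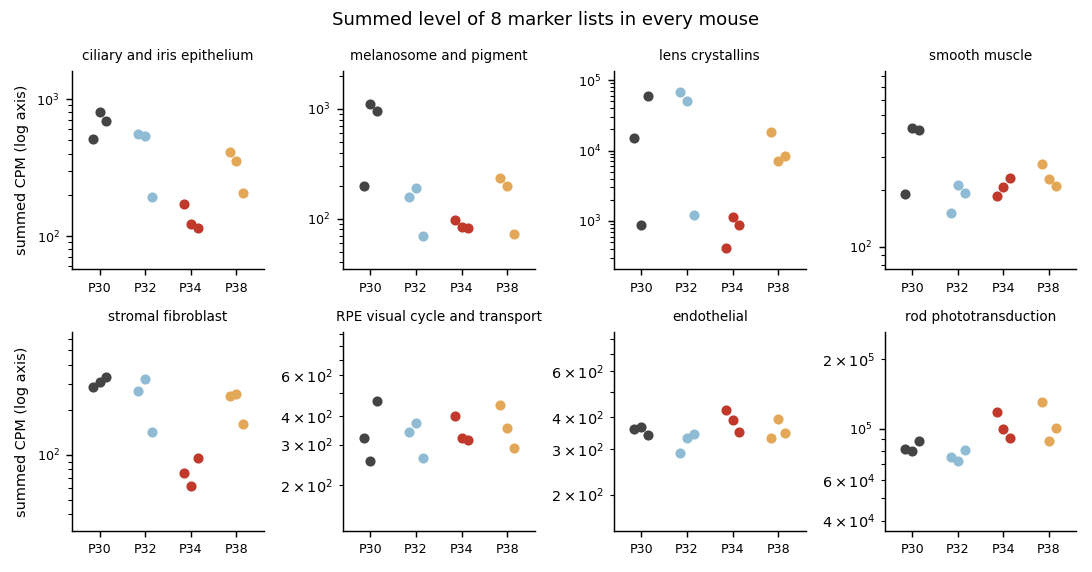
Summed CPM (log axis) of the members of 8 marker lists in each of the 12 mice at P30, P32, P34 and P38, with 1 point per mouse. The P34 mice hold the lowest sums for ciliary and iris genes (114 to 172 CPM), P30 mouse 1 lies near the cKO mice for pigment and smooth muscle genes, and RPE and endothelial sums overlap between P30 and P34. Rod sums lie higher at P34 (91185.8 to 117894 CPM) than at P30 (80272.5 to 88045.5 CPM).

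Matrix genes were also counted by family, and the lists overlap. The called stromal fibroblast genes Fbln1, Mfap4, Fmod, Fbln2, Col1a2 and Ogn are members again of the fibulin, proteoglycan or collagen lists, and Optc is in both the ciliary and the proteoglycan list. Of 17 genes of fibulins and microfibrils, 9 were called lower (median log2 fold change -1.71), against 0.66% of all genes, and in 14 all P34 mice lay below all P30 mice, against 9.67%. Fbln1, Mfap4, Ltbp1 and Ltbp2, given above, lead the list. Fbln2, a fibulin of elastic tissue, had 3.33, 3.67 and 5.38 CPM at P30 and 1.02, 0.980 and 1.25 CPM at P34 (log2 fold change -1.93, SE 0.29, adjusted p 0.00982). Fbln2 lost its call without P34 mouse 7 or 8 (adjusted p 0.0700 to 0.0821). Without P34 mouse 7 or 8, 6 of the 17 were called.

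Of 11 small leucine-rich proteoglycans, which coat collagen fibrils, 5 were called lower, against 0.66% of all genes (median log2 fold change -3.06, or -2.94 with genes at the floor of 3 counts set to it). Fmod, fibromodulin, had 31.7, 28.9 and 33 CPM at P30 and 2.46, 1.76 and 4.67 CPM at P34 (log2 fold change -3.41, SE 0.42, adjusted p 0.00270). Ogn, osteoglycin, had 30.0, 15.8 and 42.9 CPM at P30 and 0.966, 0.980 and 1.32 CPM at P34 (log2 fold change -4.77, SE 0.79, adjusted p 0.0171). Omd, osteomodulin, was rare even at P30, with 0.410, 0.404 and 0.327 CPM, and had at most 1 count in any P34 mouse (adjusted p 0.00898). The P34 mice lay below the P30 mice in each. Ogn lost its call without P30 mouse 3 or P34 mouse 7, 8 or 9 (adjusted p 0.0562 to 0.130). Omd lost its call without P34 mouse 7 or 8 (adjusted p 0.0517 to 0.0554). Without P30 mouse 3 or P34 mice 7, 8 or 9, 3, 2, 2 and 3 of the 11 were called.

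Of 42 collagen genes tested, 4 were called lower, against 0.66% of all genes (median log2 fold change -0.62), and in 22 all P34 mice lay below all P30 mice (9.67% of all genes). The called genes encode a fibril-associated collagen of the vitreous, a basement membrane collagen and a fibrillar collagen. Col9a1 had 86.6, 79.0 and 86.6 CPM at P30 and 33.1, 38.2 and 39.8 CPM at P34 (log2 fold change -1.18, SE 0.14, adjusted p 0.00158), and Col9a2, its partner chain, had 21.9, 20.7 and 20.8 CPM at P30 and 7.32, 9.26 and 7.24 CPM at P34 (log2 fold change -1.41, SE 0.20, adjusted p 0.00604). Col18a1, which holds the endostatin fragment, had 89.5, 92.9 and 104 CPM at P30 and 20.2, 21.5 and 19.9 CPM at P34 (log2 fold change -2.22, SE 0.26, adjusted p 0.00201). Col1a2, of fibrillar collagen I, had 25.8, 26.3 and 26.4 CPM at P30 and 6.32, 4.39 and 10.4 CPM at P34 (log2 fold change -1.90, SE 0.29, adjusted p 0.0117). No P34 mouse overlapped the P30 mice in any of the 4 genes. Col9a2 lost its call without P34 mouse 7 or 9 (adjusted p 0.0539 to 0.0555). Col1a2 lost its call without P34 mouse 7 or 8 (adjusted p 0.0525 to 0.0871). Without P34 mouse 7, 2 of the 42 were called, and without P32 mouse 6 or P38 mouse 12, 6 and 7.

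Other matrix families had few calls, beside 0.66% of all genes. Of 10 matrilins, thrombospondins and emilins, 3 were called (median log2 fold change -1.52, or -0.66 with a stricter filter), and 1 was with sex as a covariate. Matn2, a matrilin of basement membranes, had 13.1, 16.9 and 15.8 CPM at P30 and 2.40, 3.11 and 2.74 CPM at P34 (log2 fold change -2.47, SE 0.33, adjusted p 0.00456). Emilin2, of elastic fibers, had 0.536, 3.19 and 3.45 CPM at P30 and 0.331, 0.318 and 0.237 CPM at P34 (log2 fold change -2.98, SE 0.58, adjusted p 0.0409), and P30 mouse 1 stood near the P34 mice. Emilin2 lost its call without P30 mouse 2 or 3 or P32 mouse 5 or P34 mouse 7, 8 or 9 or P38 mouse 10, 11 or 12 (adjusted p 0.0544 to 0.218). Without any 1 of P30 mice 2 and 3, P34 mice 7, 8 and 9 or P38 mouse 11, 1 of the 10 was called. Of 13 laminins and nidogens 1 was called, Nid2, a linker of basement membranes, with 5.06, 8.42 and 9.84 CPM at P30 and 2.21, 0.833 and 1.79 CPM at P34 (log2 fold change -2.27, SE 0.44, adjusted p 0.0399). Of 20 enzymes that cross-link or modify collagen 1 was called, Lox, lysyl oxidase, with 0.899, 1.55 and 1.13 CPM at P30 and 0.193, 0.0980 and 0.305 CPM at P34 (log2 fold change -2.61, SE 0.51, adjusted p 0.0442). Nid2 lost its call without P30 mouse 2 or 3 or P34 mouse 7, 8 or 9 or P38 mouse 10 or 11 (adjusted p 0.0640 to 0.168). Lox lost its call without P30 mouse 1, 2 or 3 or P34 mouse 7, 8 or 9 or P38 mouse 10, 11 or 12 (adjusted p 0.0508 to 0.210). Without P32 mouse 4 or 6, 2 and 5 of the 20 enzymes were called. With sex as a covariate 0 of the 13 laminins and nidogens and 3 of the 20 enzymes were.

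Secreted signals and enzymes that make or break them contributed single genes. Of 50 Wnt ligands, receptors and inhibitors, 4 were called lower, against 0.66% of all genes (median log2 fold change -0.34). Notum, an enzyme that inactivates Wnt proteins, had 1.77, 1.66 and 1.75 CPM at P30 and 0.166, 0.0490 and 0.169 CPM at P34 (log2 fold change -3.76, SE 0.49, adjusted p 0.00348). Wif1, a secreted Wnt inhibitor, had 0.599, 2.44 and 3.39 CPM at P30 and 0.0276, 0.0245 and 0.102 CPM, at most 3 counts, at P34 (adjusted p 0.0153). The ligand gene Wnt16 had 0.363, 2.87 and 2.50 CPM at P30 and likewise at most 3 counts in any P34 mouse (adjusted p 0.0342). Wif1 lost its call without P30 mouse 2 or P34 mouse 7, 8 or 9 (adjusted p 0.0503 to 0.124). Wnt16 lost its call without P30 mouse 2 or 3 or P34 mouse 7, 8 or 9 or P38 mouse 10 or 11 (adjusted p 0.0579 to 0.198). Without P30 mouse 2 or 3 or P34 mouse 7, 8 or 9, 1, 2, 2, 1 and 1 of the 50 were called.

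Of 39 BMP and TGF-beta ligands, receptors and inhibitors, 3 were called lower, against 0.66% of all genes (median log2 fold change -0.19, or -0.30 without P30 mouse 1 and -0.33 without P34 mouse 9). The ligand genes Bmp2 and Bmp4 were among them. Bmp2 had 4.84, 5.73 and 7.34 CPM at P30 and 1.55, 1.37 and 0.982 CPM at P34 (log2 fold change -2.19, SE 0.37, adjusted p 0.0184), and Bmp4 had 4.73, 5.92 and 4.43 CPM at P30 and 1.55, 1.20 and 0.812 CPM at P34 (log2 fold change -2.07, SE 0.39, adjusted p 0.0351). Bmp2 lost its call without P30 mouse 2 or 3 or P34 mouse 7, 8 or 9 (adjusted p 0.0609 to 0.128). Bmp4 lost its call without P30 mouse 1, 2 or 3 or P34 mouse 7, 8 or 9 or P38 mouse 10 (adjusted p 0.0608 to 0.195). Without any 1 of P30 mice 2 and 3 or P34 mice 7, 8 and 9, 1 of the 39 was called, and without P32 mouse 6, 7 of the 39 were called. With sex as a covariate 5 were.

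Calls in hormone and vitamin A metabolism stood beside the same 0.66% of all genes. Of 15 genes of retinoic acid synthesis and response, 1 was called, Aldh1a3, which makes retinoic acid, with 1.70, 1.49 and 2.44 CPM at P30 and 0.387, 0.0980 and 0.440 CPM at P34 (log2 fold change -2.63, SE 0.45, adjusted p 0.0205). Of 9 genes of thyroid hormone handling, 2 were called. Dio3, the deiodinase that inactivates thyroid hormone, had 3.91, 5.55 and 4.64 CPM at P30 and 0.525, 0.318 and 0.609 CPM at P34 (log2 fold change -3.29, SE 0.37, adjusted p 0.00148). Dio3os, its neighbor on the opposite strand, had 3.14, 4.50 and 3.18 CPM at P30 and 1.24, 0.808 and 1.02 CPM at P34 (log2 fold change -1.82, SE 0.31, adjusted p 0.0205). The reads of this pair are told apart only if counting used the strand, an option the sources used here do not name. Aldh1a3 lost its call without P30 mouse 3 or P34 mouse 7, 8 or 9 (adjusted p 0.0576 to 0.0862). Dio3os lost its call without P30 mouse 2 or 3 or P34 mouse 7, 8 or 9 (adjusted p 0.0553 to 0.136).

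Of 18 neuropeptides and their binding proteins, 5 were called lower, against 0.66% of all genes, while the median of the list was -0.13 (-0.31 without P34 mouse 7, 0.01 without P34 mouse 8 and -0.33 with sex as a covariate). Penk, the precursor of the enkephalins, had 127, 112 and 91.8 CPM at P30 and 16.0, 11 and 12.2 CPM at P34 (log2 fold change -3.08, SE 0.34, adjusted p 0.00147). Crhbp, which binds corticotropin-releasing hormone, had 34.6, 32.7 and 22.8 CPM at P30 and 4.83, 3.26 and 3.22 CPM at P34 (log2 fold change -2.99, SE 0.34, adjusted p 0.00151). Both were called whichever library was left out. Npsr1, the neuropeptide S receptor, had 1.59, 4.72 and 3.39 CPM at P30 and 0.525, 0.612 and 0.677 CPM at P34 (log2 fold change -2.41, SE 0.40, adjusted p 0.0163). Edn3, endothelin 3, had 1.25, 4.50 and 8.02 CPM at P30 and 0.497, 0.245 and 0.237 CPM at P34 (log2 fold change -3.79, SE 0.63, adjusted p 0.0184). Npsr1 lost its call without P30 mouse 2 or 3 or P34 mouse 7, 8 or 9 (adjusted p 0.0564 to 0.106). Edn3 lost its call without P30 mouse 2 or 3 or P34 mouse 7, 8 or 9 (adjusted p 0.0553 to 0.130). Without P30 mouse 2 or 3, or any P34 mouse, 2 of the 18 were called, and with sex as a covariate 3 were.

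Of 30 antioxidant enzyme genes tested, 4 were called lower, against 0.66% of all genes (median log2 fold change -0.15, or -0.27 without P34 mouse 7, -0.03 without P34 mouse 8 and -0.36 with sex as a covariate), 2 of them secreted enzymes and 2 glutathione transferases. Gpx3, the extracellular glutathione peroxidase, had 61.4, 94.1 and 90.5 CPM at P30 and 9.69, 6.15 and 7.11 CPM at P34 (log2 fold change -3.42, SE 0.43, adjusted p 0.00294). Sod3, the extracellular superoxide dismutase, had 13.3, 13.5 and 12.4 CPM at P30 and 1.44, 1.05 and 1.46 CPM at P34 (log2 fold change -3.32, SE 0.33, adjusted p 0.000672). Neither age overlapped the other in these genes. Gsta3, a glutathione transferase whose promoter also held TAATCC, had 5.46, 20.8 and 10.5 CPM at P30 and 2.10, 2.18 and 1.86 CPM at P34 (log2 fold change -2.57, SE 0.45, adjusted p 0.0215). Mgst1, the microsomal glutathione transferase, had 12.7, 20.5 and 17.9 CPM at P30 and 3.23, 3.04 and 3.25 CPM at P34 (log2 fold change -2.42, SE 0.42, adjusted p 0.0228). Gsta3 lost its call without P30 mouse 2 or 3 or P34 mouse 7, 8 or 9 (adjusted p 0.0562 to 0.146). Mgst1 lost its call without P30 mouse 2 or 3 or P34 mouse 7, 8 or 9 (adjusted p 0.0786 to 0.139). Without any 1 of P30 mice 2 and 3 or P34 mice 7, 8 and 9, Gpx3 and Sod3 were the 2 left.

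The immune lists held 2 calls, where 0.66% of all genes tested were called lower. Mrc1, the mannose receptor of perivascular macrophages, had 0.568, 0.929 and 1.25 CPM at P30 and 0.110, 0.220 and 0.0677 CPM at P34 (log2 fold change -2.69, SE 0.43, adjusted p 0.0141), the single call among 17 microglia and macrophage genes. The complement gene C4b had 6.51, 8.00 and 13.1 CPM at P30 and 3.92, 2.01 and 3.39 CPM at P34 (log2 fold change -1.57, SE 0.30, adjusted p 0.0409), the single call among 12. Mrc1 lost its call without P30 mouse 2 or 3 or P34 mouse 7 or 9 (adjusted p 0.0562 to 0.0930). C4b lost its call without P30 mouse 2 or 3 or P34 mouse 7, 8 or 9 or P38 mouse 10, 11 or 12 (adjusted p 0.0572 to 0.168). Without P30 mouse 1 or P32 mouse 6, 2 and 3 complement genes were called. Of 7 MHC class II genes 0 were called (median log2 fold change -1.41, or -0.90 with a stricter filter), with Cd74, the invariant chain, at 1.64, 2.77 and 2.73 CPM at P30 and 0.939, 0.784 and 0.948 CPM at P34 (log2 fold change -1.41, SE 0.46, adjusted p 0.304). Without P32 mouse 6, 2 of the 7 were called.

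Photoreceptor genes, in whose cells the deletion was made, held 0 calls in either direction, where 0.66% of all genes tested were called lower and 0% higher. All 20 rod phototransduction genes tested had a positive log2 fold change, with a median of 0.18, and in 7 all P34 mice lay above all P30 mice, against 1945 (10.4%) of all genes tested. Gnat1, the rod transducin alpha subunit, had 12237, 11918 and 13194 CPM at P30 and 18408, 14766 and 13996 CPM at P34 (log2 fold change 0.34, SE 0.18, adjusted p 0.548). The P34 mice lay above the P30 mice, by an amount that did not pass. Of 12 genes of the outer segment and interphotoreceptor matrix 0 were called (median 0.21, or 0.33 with sex as a covariate). The study counts Vcan among the components of this matrix. Vcan is not in this list and was called lower, as given above. Rbp3, the retinoid-binding protein of that matrix, had 4676, 5785 and 6649 CPM at P30 and 8924, 7174 and 7946 CPM at P34 (log2 fold change 0.49, SE 0.22, adjusted p 0.477). Prph2, which shapes outer segment discs, had 6117, 6031 and 6152 CPM at P30 and 8228, 6759.8 and 6655 CPM at P34 (log2 fold change 0.24, SE 0.17, adjusted p 0.644). Of 13 photoreceptor transcription factor genes 0 were called (median 0.15, or 0.09 without P34 mouse 9), with Crx at 1174, 1193 and 1141 CPM at P30 and 1184, 1248 and 1254 CPM at P34 (log2 fold change 0.071, SE 0.13, adjusted p 0.897). Of 12 cone phototransduction genes (median 0.09, ranging from 0.0049 without P30 mouse 1 to 0.15 without P34 mouse 8) and 13 ribbon synapse genes (median 0.19), 0 were called.

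Marker lists of other retinal cells had 0 calls as well, beside the same background of 0.66%. Of 16 retinal ganglion cell genes, all had positive log2 fold changes (median 0.43, or 0.27 without P34 mouse 7). Nefm, the middle neurofilament, had 163, 134 and 208 CPM at P30 and 273, 195 and 248 CPM at P34 (log2 fold change 0.50, SE 0.18, adjusted p 0.339), and Thy1, a surface protein of these cells, had 177, 149 and 184 CPM at P30 and 273, 182 and 222 CPM at P34 (log2 fold change 0.41, SE 0.13, adjusted p 0.304). All 8 horizontal cell genes were positive (median 0.49), and in 6 all P34 mice lay above all P30 mice, against 10.4% of all genes. Calb1, a calcium-binding protein of these cells, had 113, 101 and 107 CPM at P30 and 162, 101 and 128 CPM at P34 (log2 fold change 0.29, SE 0.16, adjusted p 0.559), with P34 mouse 8 level with the lowest P30 mouse. The medians were 0.21 for 14 amacrine genes, -0.0046 for 14 bipolar genes (-0.06 to 0.10 with 1 library left out), 0.02 for 15 Müller glia genes (-0.07 to 0.08) and -0.17 for 13 genes of reactive gliosis (-0.29 to -0.08). With sex as a covariate 1 gliosis gene was called lower. Dkk3, abundant in Müller glia, had 968, 859 and 995 CPM at P30 and 742, 675 and 692 CPM at P34 (log2 fold change -0.42, SE 0.12, adjusted p 0.238), with no overlap between ages and no call.

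**Figure D4:**
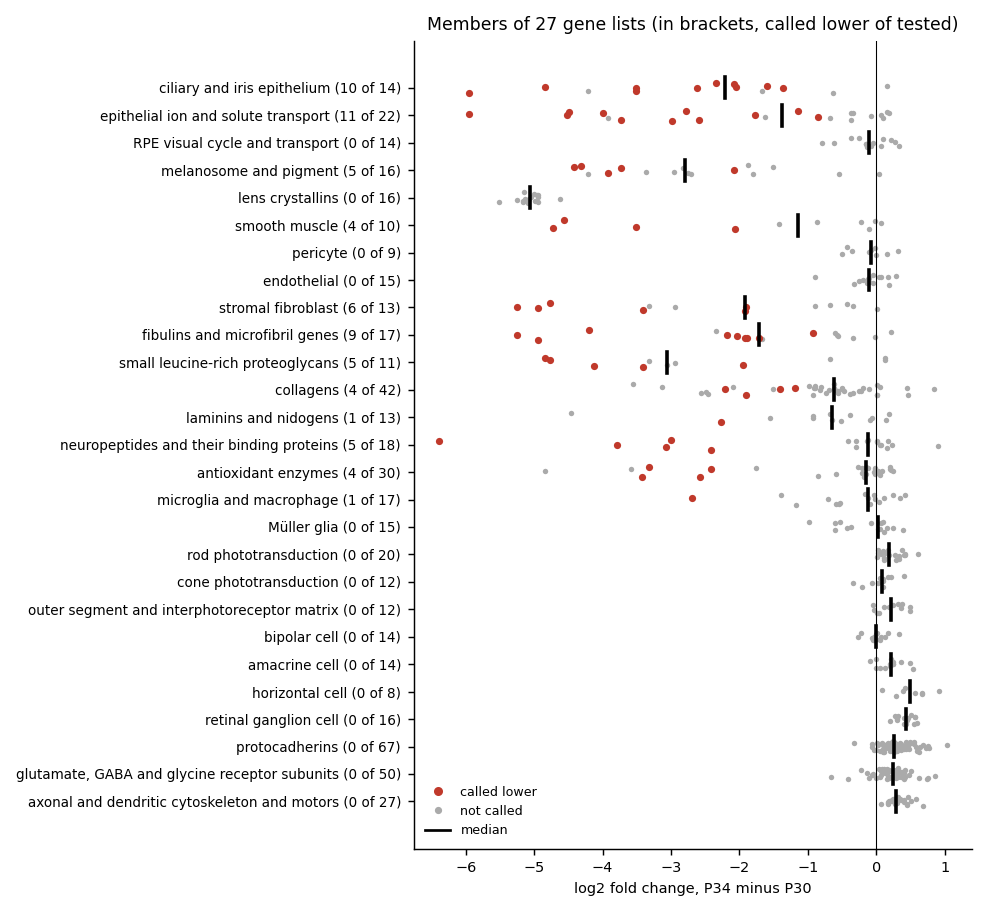
Log2 fold change between P34 and P30 of each tested member of 27 gene lists, with called genes in red, others in gray and the median of each list as a black bar. Red points lie in ocular tissue, transport, matrix, neuropeptide, antioxidant and immune lists, and the photoreceptor and neuronal lists hold none and have medians near or above 0.

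In the upward direction 0 genes passed. The 12 genes with the smallest unadjusted p among those above P30 in every P34 mouse, and by at least 0.5 on the log2 scale, are given as values that did not pass edgeR's test. Grin2a, an NMDA receptor subunit, had 18.2, 19.7 and 24.7 CPM at P30 and 33.5, 28.6 and 34.9 CPM at P34 (log2 fold change 0.63, SE 0.17, adjusted p 0.191). Usp46, a deubiquitinase, had 66.0, 66.6 and 80.0 CPM at P30 and 113, 88.1 and 99.9 CPM at P34 (log2 fold change 0.50, SE 0.13, adjusted p 0.147). Sik1, a salt-inducible kinase that responds to cAMP, had 10.6, 8.64 and 13.5 CPM at P30 and 14.6, 20.4 and 18.3 CPM at P34 (log2 fold change 0.71, SE 0.20, adjusted p 0.228). No P34 mouse overlapped the P30 mice in these, as the choice of genes required. The smallest adjusted p was that of 1700030J22Rik, with 10.5, 10.7 and 10.9 CPM at P30 and 14.3, 14.7 and 16.8 CPM at P34 (log2 fold change 0.51, SE 0.12, adjusted p 0.0961). The other genes were Trarg1, Fbxo40, Ebf1, Mctp1, Pcdh11x, Gm12462, Kndc1 and Fam110c, with log2 fold changes of 0.50 to 2.21 and adjusted p-values of 0.159 to 0.229. DESeq2's test called 16 genes higher, of which 4 were Y-linked and 9 were among these 12 genes. They were Grin2a, Usp46, Sik1, 1700030J22Rik, Trarg1, Ebf1, Mctp1, Pcdh11x and Kndc1, with adjusted p-values by DESeq2 of 0.00283 (1700030J22Rik) to 0.0384 (Sik1). The study, which also used DESeq2, listed Grin2a, Sik1, Mctp1, Pcdh11x and Kndc1 among the genes raised 4 d after cKO.

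Several neuronal gene families had small positive medians. Of 67 protocadherins, 63 had positive log2 fold changes (median 0.26), and in 26 all P34 mice lay above all P30 mice, against 10.4% of all genes tested and 19.7% of the fifth of genes that spans the most of the genome. Of 50 glutamate, GABA and glycine receptor subunits, 25 were so separated (median 0.25), and so were 15 of 30 neuronal adhesion genes (median 0.24), 11 of 27 genes of the axonal cytoskeleton (median 0.29), 21 of 79 potassium channels (median 0.18) and 12 of 37 sodium and calcium channel subunits (median 0.21). None of these lists held a call. With sex as a covariate the median was 0.58 for protocadherins, 0.30 for potassium channels and 0.32 for sodium and calcium channel subunits, and without P30 mouse 1 it was 0.17 for protocadherins and 0.13 for sodium and calcium channel subunits. All P30 mice were female and 2 of the 3 P34 mice male. Pcdh10, a protocadherin, had 75.7, 78.1 and 101 CPM at P30 and 134, 103 and 121 CPM at P34 (log2 fold change 0.49, SE 0.18, adjusted p 0.354). Gabbr1, a GABA-B receptor subunit, had 189.9, 204 and 216 CPM at P30 and 278, 229 and 263 CPM at P34 (log2 fold change 0.33, SE 0.15, adjusted p 0.468). The differences also went with the length of genes. In the fifth of genes that span the least of the genome (median 2161 bp) the median log2 fold change was -0.08, and in the fifth that spans the most (median 122273 bp) it was 0.08, with 3.55% and 19.7% of genes above P30 in every P34 mouse. The median span was 304732 bp for neuronal adhesion genes, 161194 bp for receptor subunits, 86143 bp for protocadherins and 52247 bp for axonal genes, but 9418 bp for retinal ganglion cell genes. The part of gene length in these differences was not tested.

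Housekeeping genes were counted in the same way, with 0.66% of all genes tested called lower and 0% higher as the background. Of 75 nuclear oxidative phosphorylation genes (median log2 fold change -0.03), 81 cytosolic ribosomal protein genes (median -0.18), 22 glycolytic genes (median 0.02), 19 clock genes, 16 genes of endoplasmic reticulum stress and 19 apoptosis regulators, 0 were called. With 1 library left out the median ranged from -0.16 to 0.06 for oxidative phosphorylation, from -0.28 to -0.06 for ribosomal proteins and from -0.07 to 0.11 for glycolysis, and with sex as a covariate the first was -0.24 and the second -0.40. Of 22 genes of cholesterol synthesis and uptake 0 were called (median 0.20, or 0.10 without P34 mouse 7), and in 10 all P34 mice lay above all P30 mice (10.4% of all genes). Hmgcs1, an early enzyme of the pathway, had 194, 195 and 209 CPM at P30 and 277, 223 and 272 CPM at P34 (log2 fold change 0.37, SE 0.12, adjusted p 0.294). Of 16 immediate early genes 0 were called (median 0.35), and Nr4a1 had 23.9, 22.9 and 37.4 CPM at P30 and 33.5, 32.8 and 44.2 CPM at P34 (log2 fold change 0.39, SE 0.19, adjusted p 0.509).

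**Figure D5:**
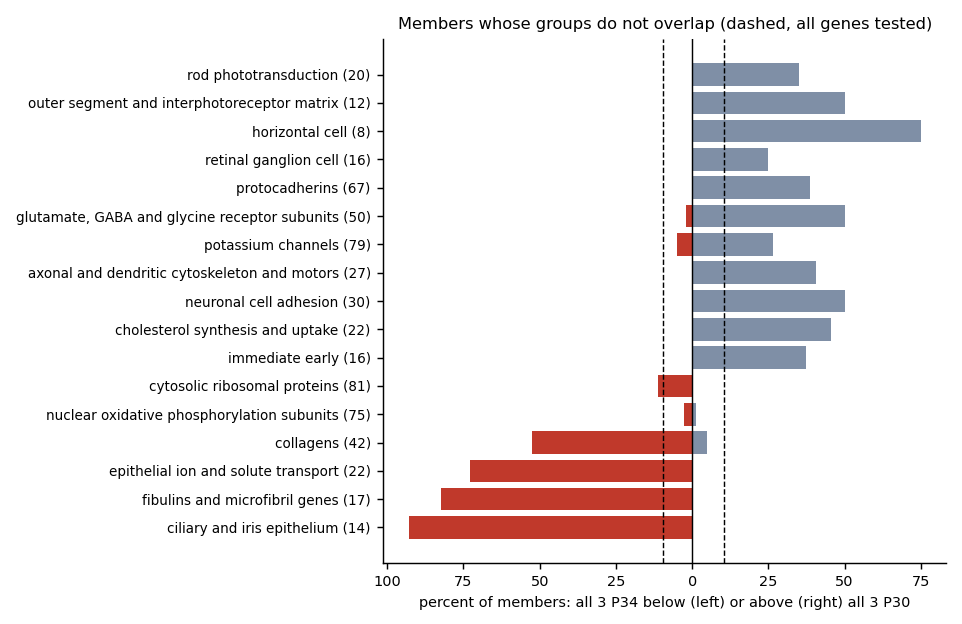
Percent of tested members of 17 gene lists in which all 3 P34 mice lie above all 3 P30 mice (right) or below (left), with list sizes in brackets and dashed lines at the shares over all genes tested (10.4% above, 9.67% below). Ciliary and iris genes extend to the left, and neuronal and photoreceptor lists to the right.

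The P34 mice were also compared with the other cKO mice, which had the same genotype and injection. The P30 mice are not in its means but enter through the filter, the scaling and the common estimate of the spread. Against the mean of P32 and P38, 47 (0.252%) genes were lower at P34 and 0 (0%) higher by edgeR's test in the same fit. At an unadjusted p of at most 0.05 these counts were 815 and 191. With 1 P30 mouse left out, 42 to 44 genes were lower. This comparison and that with P30 share the P34 mice, so genes chosen for low values at P34 in one are favored in the other, and values are given side by side. Fbln1 had 76.7, 89.8 and 31.9 CPM in P32 mice 4, 5 and 6 and 40.8, 54.6 and 37.0 CPM in P38 mice 10, 11 and 12, and Slc26a4 had 6.15, 9.30 and 4.14 CPM and 4.20, 5.84 and 5.87 CPM. In both the P34 mice were the lowest of the 12, and P32 mouse 6 was the lowest of the P32 mice. Best2 had 8.31, 6.90 and 2.19 CPM at P32 and 3.69, 4.64 and 2.27 CPM at P38, and at P34 its log2 fold change against them was -5.08 (adjusted p 0.00306). Myh11, in contrast, had 0.900, 2.27 and 0.863 CPM at P32 and 1.55, 3.07 and 1.19 CPM at P38, a log2 fold change of -0.17 (adjusted p 0.937), and Gpnmb had 11.2, 16.4 and 5.47 CPM at P32 and 17.5, 18.6 and 7.06 CPM at P38, a log2 fold change of -0.64 (adjusted p 0.665). For these genes the P30 mice 2 and 3 stood apart from the other mice. In 68 of the 123 genes both P30 mice 2 and 3 lay above every cKO mouse, and in 37 P30 mouse 1 did. The 123 genes were called for higher levels at P30 than at P34, which favors such counts, and the share over all genes was not counted. Without P34 mouse 8 the count against P32 and P38 was 14, and without P32 mouse 6 it was 153.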

How the data were processed

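RNA of whole retinas from 12 mice, 1 library per mouse, was sequenced by the authors as 50 bp single reads from stranded mRNA libraries (bcl2fastq 2.17.1.14). The authors mapped reads to mm10 with STAR 2.5.3a and counted those on genes of Ensembl release 93 with HTSeq 0.6.1p1, and the deposited values are these counts per gene, whole and not normalized. Rows of reads not assigned to a gene were left out: reads with no unique position were 24.5 to 29.3% and reads on no gene 6.53 to 13.7% of all reads in the P30 and P34 files. The strand option is not named in the sources used here, and genes with near-identical copies lose reads that map to both. Groups were taken from the labels.

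CPM were computed with TMM scaling in edgeR 4.0.16 (R 4.3.3), and edgeR's filter kept 18628 of 54146 genes. All 12 libraries entered 1 quasi-likelihood fit with 1 mean per group and no covariate. P-values were adjusted by Benjamini-Hochberg over all genes tested. The SE is the log2 fold change divided by the square root of F. Symbols came from GENCODE M21, which named 54079 (99.9%) genes. The libraries of a group differed by more than sampling noise (chi-square per degree of freedom 19.7 to 165), and floors of 3 counts cover counting error only. On simulated counts for this comparison (18413 genes), 36 of 50 genes changed by -1 on the log2 scale, 34 of 50 changed by 1, 47 of 50 changed by -2 and 47 of 50 changed by 2 were recovered, with 7 false calls. Each simulated gene was drawn on its own, and changes were placed only in genes with a mean above 1 CPM. These rates therefore do not cover rarer genes or shifts that many genes of a mouse share, such as those of lens genes.

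The genes and lists were chosen with earlier results of these data known. Named are, among called genes whose ages do not overlap, the 15 of smallest p and the 10 most abundant; the 12 of smallest p among those higher; up to 4 called members of a list by p, or the 3 most abundant where none was called; Otx2, Ddx3y, and the 8 of smallest p against P32 and P38. Those named outside this rule, after their values were seen, are Rpe65, Slc6a13, Gucy2e, Guca1a, the Y-linked genes and members that did not pass. Lists are described by counts and medians without a test. Alternatives were DESeq2 1.42.0 (its size factors, and its test), limma-voom (limma 3.58.1), a robust fit, other filters, other thresholds, a fit of the 6 libraries alone, sex as a covariate and each library left out. Figures were drawn with matplotlib 3.10.9. Results for some genes that fall under the rule are not reported here.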

Additional observations from a re-analysis of the deposited data

Results flagged for a closer look

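The contrast of P34 with the mean of P32 and P38 tests whether the 4th day differs from the other days after tamoxifen. It gave 47 genes lower at P34 by edgeR's quasi-likelihood test, and the 8 of smallest p were Vcan (log2 fold change -2.55, adjusted p 0.000433), Slc26a4 (-4.05, adjusted p 0.000433), Fbln1 (-4.37, adjusted p 0.000504), Ltbp2 (-3.95, adjusted p 0.000548), Optc (-4.38, adjusted p 0.000548), Mfap4 (-4.47, adjusted p 0.00114), Slc13a4 (-3.37, adjusted p 0.00131) and Sod3 (-2.69, adjusted p 0.00306). In each of the 8 all P34 mice lay below all P32 and P38 mice, which their choice by p favors. Over all genes tested, the P34 mice were the 3 lowest of the 12 mice in 327 (1.76%). P32 mouse 6 was the lowest P32 mouse in each of them. In the plot of Vcan, Fbln1, Optc and Slc26a4 over the 12 mice the P38 mice lay above every P34 mouse. Deletion was started at the same age in all 9 cKO mice, so the days differ in time since tamoxifen, in age and in the mice. What sets P34 apart was not tested.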

How the results depend on the processing

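The genes lower at P34 than at P30 were 123, and 294 without the filter on low counts, 353 by DESeq2's test, 71 by limma-voom, 228 with only the 6 libraries compared and 1009 at an unadjusted p of at most 0.05. Of the 123, DESeq2 kept 122, limma-voom 70 and the 6 libraries alone 109. With 1 library left out they were 43 (without P34 mouse 8) to 211 (without P32 mouse 6, chosen after seeing the data). Genes higher at P34 were 0, and 4 without the filter, 16 by DESeq2, 1 with the 6 libraries alone, 159 unadjusted and 0 to 2 with 1 library left out. Genes lower at P34 than at P32 and P38 were 47, and 207 without the filter, 279 by DESeq2, 22 by limma-voom, 815 unadjusted and 14 to 153 with 1 library left out. Genes higher there were 0, and 4 without the filter, 7 by DESeq2, 191 unadjusted and 0 to 6 with 1 library left out. The cause was not tested. DESeq2's size factors (124 and 47 lower), a stricter filter (105 and 44), a robust fit (117 and 47), no limit on the fold (123 and 47) or a limit of 1 (118 and 46) and sex as a covariate (142 and 64) stayed within 1.5 times, and with sex 98 of the 123 were kept.

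Of the genes named, 3 changed sign, none of them called. Car12 had a log2 fold change of -0.034 with sex as a covariate and of -0.14 to 0.77 with 1 library left out (negative without P30 mouse 1, P30 mouse 2 or P34 mouse 7). Guca1a had -0.15 with sex and -0.0056 (without P34 mouse 7) to 0.21. Rpe65 had -0.037 (without P30 mouse 2) to 0.83. Medians of 14 of the 59 lists changed sign in at least 1 alternative, among them those of the pericyte, endothelial, bipolar, Müller glia, neuropeptide, oxidative phosphorylation, glycolysis, clock, endoplasmic reticulum stress and RPE lists. No paired analysis was possible because the groups share no replicate numbers. Depth limits rare genes: at 29701483 to 60145034 counts, 12 of the 123 had at most 3 counts in every P34 mouse.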
